A study of Mus musculus with 2 samples.

Results

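Lipid-associated macrophage genes are a set of transcripts built around the receptor TREM2, and 10 of them were chosen by symbol: Trem2, Tyrobp, Gpnmb, Spp1, Lgals3, Itgax, Fabp5l2, Cd84, Lgals1 and Vim. Genes of lipid uptake, cathepsins and tetraspanins were left out by the rule. Of the 10 symbols, 9 were matched by Ensembl gene ID to a row among the 22322 genes of the table, and Fabp5l2, annotated in GENCODE as a processed pseudogene, was not analysed here. Liver macrophages came from male mice of 6 to 8 weeks either C57BL/6 WT or FABP7 KO on C57BL/6 J, a deletion carried by every cell of the animal. Both groups received 500000 MC38 cells, a mouse colon carcinoma line, in 100 µl PBS into the spleen, and F4/80 positive selection was used to isolate macrophages from the metastatic liver on day 10. The design gives 1 WT and 1 KO sample, so the differences below could not be checked against replicates and carry no p-value. One label field calls the KO sample a knockdown, and the knockout stated elsewhere in the labels was used.

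TREM2 is a surface receptor that binds lipids, lipoproteins and debris of dead cells, and it signals through the adaptor TYROBP, whose cytoplasmic motif recruits the kinase SYK. In tissues that load macrophages with lipid, such as obese fat, atherosclerotic plaques and fatty liver, this axis marks macrophages that also express the lysosomal glycoprotein GPNMB, the secreted protein osteopontin (Spp1), galectins and the integrin chain CD11c (Itgax). In the healthy liver, resident Kupffer cells are known for scavenger and complement receptors rather than for this program.

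Values are FPKM, fragments per length of the gene and size of the library, so levels can be compared between genes. The log2 ratio compares KO with WT, each raised by 1 FPKM, and therefore understates differences of low genes. A gene was counted as higher or lower when this ratio reached 1, a 2-fold difference, a criterion of size alone. Ratios described as above or below 0 are log2 ratios. Counting error was approximated from an estimated depth of 18040000 fragments for WT and 17960000 for KO, read from the steps between low FPKM values, and from the longest coding transcript of each gene. The resulting 95% intervals (exact Poisson for a level, Clopper-Pearson for a ratio of KO to WT FPKM without the added 1) cover counting error only and leave out any difference between mice.

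The sequences below are the RefSeq promoter windows (build GRCm38.p6, plus strand, bases 250 to 1 before the annotated start) of Trem2, Spp1 and Gpnmb. Trem2 was the member with the highest KO to WT ratio. Spp1 and Gpnmb had few transcripts despite their place in the program, as did Itgax, whose window is not shown. For Vim, the member with the lowest ratio, the window overlaps an annotated exon of a longer isoform, so only 30 bases around its TATA-like motif are shown. Capitals mark matches, on either strand, to an AP-1 motif (TGANTCA), an E-box (CACGTG), a PU.1 motif (GAGGAAGT) or a TATA motif (TATAAA).
Trem2, chr17:48346151-48346400: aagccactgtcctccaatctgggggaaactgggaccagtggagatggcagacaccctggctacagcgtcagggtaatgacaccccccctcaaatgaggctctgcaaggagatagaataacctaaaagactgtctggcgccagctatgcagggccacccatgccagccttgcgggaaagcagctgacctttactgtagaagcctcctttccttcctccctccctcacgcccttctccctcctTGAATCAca
Spp1, chr5:104434861-104435110: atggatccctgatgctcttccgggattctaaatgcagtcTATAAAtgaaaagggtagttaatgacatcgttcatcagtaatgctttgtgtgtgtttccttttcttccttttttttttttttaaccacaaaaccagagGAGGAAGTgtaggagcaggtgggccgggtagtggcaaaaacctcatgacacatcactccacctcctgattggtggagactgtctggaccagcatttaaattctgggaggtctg
Gpnmb, chr6:49036268-49036517: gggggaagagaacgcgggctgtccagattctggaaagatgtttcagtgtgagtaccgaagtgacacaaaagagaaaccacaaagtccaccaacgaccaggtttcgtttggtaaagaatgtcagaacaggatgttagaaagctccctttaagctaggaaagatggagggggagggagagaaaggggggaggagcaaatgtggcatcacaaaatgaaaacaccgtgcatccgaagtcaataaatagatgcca
Vim, chr2:13574266-13574295: ttcctaacagtgtTATAAAagcagcgccct

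RefSeq windows were found for 7 of the 10 genes, with 2 windows for Spp1, of which the second, starting within the gene, is not shown. The AP-1 motif stood in the windows of Trem2, 9 bases before the start, of Itgax, 56 bases before it, and of Cd84, 229 bases before it, against 6.75% of 32851 windows of the same length. The PU.1 motif stood in the Spp1 window, against 2.44% of all windows, and TATAAA in those of Vim and Spp1, against 12.4%. The E-box, found in 6.02% of all windows, was in none of the members' windows. These matches describe letters in a window and not bound sites.

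Among the 9 genes, Vim alone passed the size rule: it fell 3.17-fold, from 230 FPKM in WT to 72.7 FPKM in FABP7 KO macrophages. Trem2 had the highest ratio, with 7.17 FPKM in WT against 13.1 FPKM in KO macrophages, short of the rule. None of the 9 genes was at least 2-fold higher, where 2.21% of the 10770 genes measured at 1 FPKM or more in a library were, and 1 was at least 2-fold lower, where 2.95% were. Of the log2 ratios, 5 were above 0 and 4 below 0, with a median of 0.05 beside 0.004 over all measured genes. In sorted bulk RNA, fewer cells that express a gene and less RNA per cell cannot be told apart.

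**Figure D1:**
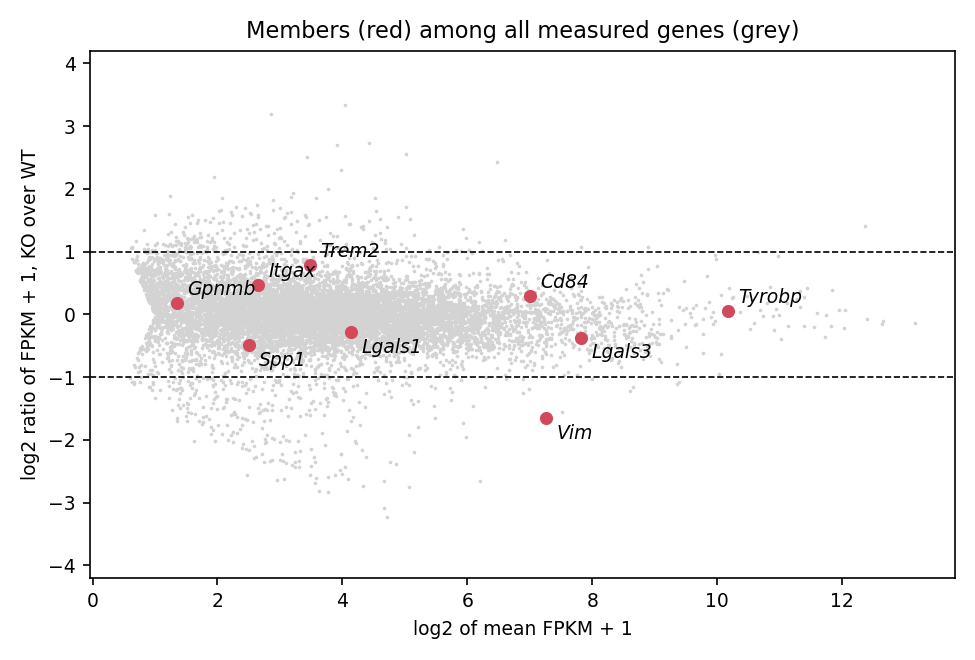
Log2 ratio of FPKM + 1, KO over WT (y axis), against log2 of the mean FPKM + 1 of both libraries (x axis), for all measured genes (grey) and the 9 members (red), with dashed lines at a 2-fold difference. Vim lies below the lower line at -1.65, the other 8 members lie between the lines, and Fabp7, at -7.71, is below the axis range.

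Several measurements of the whole libraries frame these values. Fabp7, the deleted gene, was at 354 FPKM in WT against 0.69 FPKM in KO macrophages. The 11 pan-macrophage markers were all measured, with none past 2-fold and summed levels of 13100 and 16900 FPKM, and the 10 Kupffer cell markers, all measured, had none past 2-fold and summed levels of 14800 and 15300 FPKM. Of these, 6 had ratios above 0, such as Clec4f, the C-type lectin that defines these cells in mice, at 3188 and 4156 FPKM, and 4 below 0, lowest for the scavenger receptors Marco at 1377 and 714 FPKM and Cd163 at 216 and 123 FPKM. Trem2, Spp1, Itgax and Gpnmb, genes by which lipid-associated macrophages are recognised, were all below 15 FPKM in both libraries, and the name of the program is used here for the genes and not for these cells. All 12 cell division genes were at least 2-fold lower in the KO library, with a summed level of 791 FPKM in WT against 198 FPKM in KO. Summed markers of sinusoidal endothelial cells (192 and 326 FPKM), hepatocytes (236 and 463 FPKM), neutrophils (40.3 and 116 FPKM) and stellate cells and fibroblasts (21.7 and 53.7 FPKM, mostly Dcn) were higher in the KO library, and those of monocytes (972 and 481 FPKM, mostly Plac8) were lower.

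**Figure D2:**
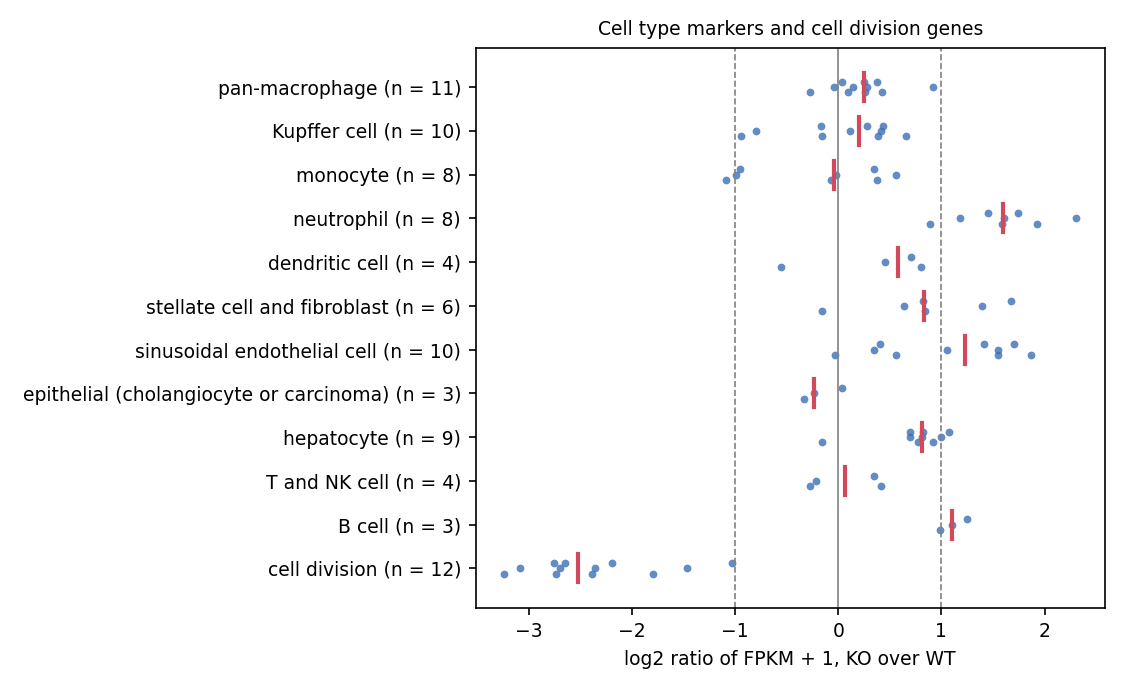
Log2 ratio of FPKM + 1, KO over WT (x axis), for each measured marker (points) of 11 cell types and for cell division genes (rows), with the median of each row (red line) and dashed lines at a 2-fold difference. The cell division genes lie left of -1 with a median of -2.52, and the neutrophil and sinusoidal endothelial medians lie at 1.60 and 1.23.

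The levels of the 9 genes spanned about 3 orders of magnitude, and their order was close to the same in both libraries. In WT macrophages it ran from Tyrobp, Lgals3, Vim and Cd84 through Lgals1, Trem2, Spp1 and Itgax to Gpnmb. In KO macrophages Vim and Cd84 changed places, as did Spp1 and Itgax. Within counting error, Trem2 could not be separated from Spp1, nor Spp1 from Itgax, in the WT library, and Trem2 could not be separated from Lgals1 in the KO library, whereas all other neighbours in the order had intervals that did not overlap. Tyrobp alone made up 64.0% of the summed FPKM of the 9 genes in WT and 72.3% in KO macrophages, and Vim 4.48% in KO. Set among all measured genes, Tyrobp was above 99.6% of them in both libraries and Gpnmb above 7.88% in WT and 8.95% in KO.

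**Figure D3:**
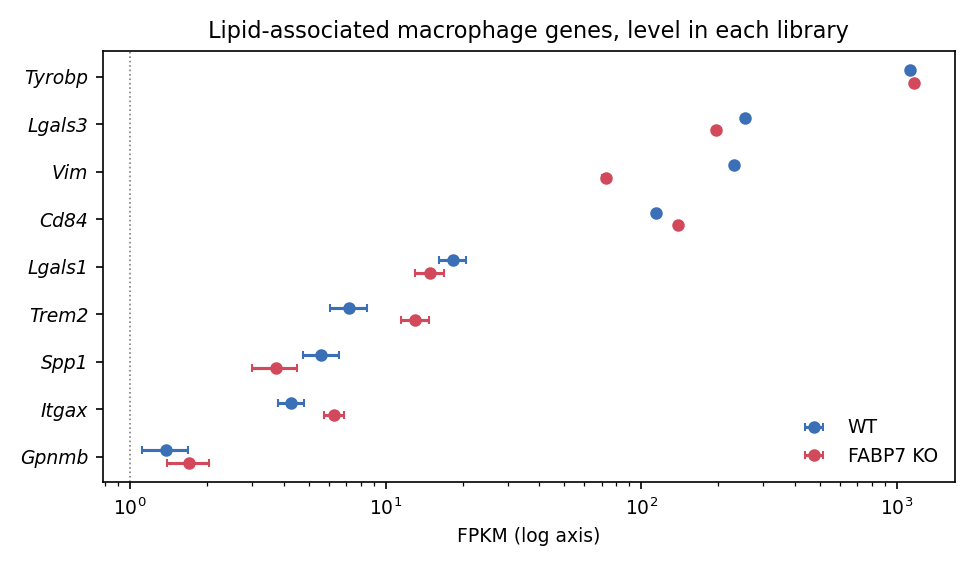
FPKM on a log axis (x axis) of the 9 members (rows) in the WT (blue) and the FABP7 KO library (red), with 95% intervals for counting error only and a dotted line at the 1 FPKM floor. Tyrobp is above 1000 FPKM in both libraries, Gpnmb lies just above the floor, and the Vim points are the farthest apart.

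Trem2 (ENSMUSG00000023992), the lipid receptor that gives the program its name, was at 7.17 FPKM (counting interval 6.05 to 8.47) in WT and at 13.1 FPKM (11.5 to 14.8) in KO macrophages. The KO value was the higher, and the intervals did not overlap. Its ratio of KO to WT FPKM was 1.82 (counting interval 1.47 to 2.25), and with 1 FPKM added the log2 ratio was 0.78, higher than that of 95.7% of measured genes. About 141 and 255 fragments stood behind these values. A 1.5-fold rule would count 1 member as higher, Trem2, where 8.02% of measured genes are, and 1 as lower, Vim, where 7.37% are.

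Tyrobp (ENSMUSG00000030579), the adaptor that carries TREM2 signals into the cell and serves many other myeloid receptors, was at 1130 FPKM in WT against 1174 FPKM in KO macrophages. These were nearly equal levels, with a log2 ratio of 0.05 and a counting interval of the ratio of 1.01 to 1.06. The adaptor exceeded its receptor Trem2 by 158-fold in WT and by 89.9-fold in KO macrophages.

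Several other receptors listed here as partners of TYROBP were more abundant than Trem2 in both libraries, such as Cd300c2 and Pilrb1. Of 14 listed, 11 were measured, 2 of them fell at least 2-fold and none was 2-fold higher. Trem3, a relative of Trem2 encoded near it, fell from 9.0 to 2.52 FPKM, and Sirpb1a, a signal-regulatory protein of the activating kind, fell from 14.2 to 5.97 FPKM. Sirpb1c, a close copy of Sirpb1a with which it can share reads, was at 23.3 and 13.7 FPKM. The most abundant of the list were Cd300ld at 264 and 303 FPKM, Cd300c2 at 187 and 230 FPKM, Pilrb1 at 163 and 203 FPKM and Pilrb2 at 101 and 128 FPKM, all closely related to other family members that can share their reads. Pairing with TYROBP was not examined in these data, and that of Cd300ld is uncertain. Trem1, which amplifies inflammatory signals, was under the floor at 0.72 and 0.43 FPKM. The 11 measured genes had a median log2 ratio of 0.10.

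Downstream of TYROBP, all 19 listed signalling genes were measured and none passed the size rule, with a median log2 ratio of 0.06. Syk, the kinase recruited by the phosphorylated adaptor, was at 87.6 FPKM in WT against 107 FPKM in KO macrophages. The Src family kinase Lyn, which phosphorylates such adaptors, was at 270 and 268 FPKM, and the phosphatase Ptpn6, which dampens them, was at 282 and 307 FPKM. The phospholipase Plcg2, which acts below TREM2, was at 58.9 and 54.9 FPKM, the exchange factor Vav1 at 123 and 117 FPKM, the kinase subunit Pik3cd at 73.2 and 90.1 FPKM, and the lipid phosphatase Inpp5d, a brake on the pathway, at 89.3 and 83.6 FPKM. Among these genes of the core route, Syk and Pik3cd were modestly higher in the KO library, with ratios of 1.22 and 1.23, and the others differed less. The highest ratios were those of Hcst, a second adaptor that can join TREM2 complexes, at 8.12 and 16.7 FPKM, and of Blnk, a scaffold protein of B cells and myeloid cells, at 1.63 and 3.65 FPKM. B cell markers summed to 9.13 FPKM in WT against 23.9 FPKM in KO, with 2 of 4 at least 2-fold higher and none at 0. Their part in the Blnk values was not tested.

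On the ligand side, Apoe, the apolipoprotein that TREM2 binds, rose from 2871 to 7643 FPKM in KO macrophages, a ratio of 2.66 (counting interval 2.64 to 2.68) and a log2 ratio of 1.41. It was the single gene past the size rule among 9 measured genes of TREM2 ligands and cleavage. Clu, another lipoprotein ligand, was at 5.61 and 9.55 FPKM. Hepatocytes also make Apoe, and of their 9 markers, all measured, 2 were at least 2-fold higher in the KO library, with albumin (Alb) at 144 and 305 FPKM; their part in the Apoe value was not tested. The proteases that shed the TREM2 ectodomain were at near levels in both libraries, Adam10 at 128 and 118 FPKM and Adam17 at 82.2 and 89.2 FPKM. The gamma-secretase genes, which clear the remaining stub, ranged from -0.20 (Aph1a) to 0.46 (Psen2) on the log2 scale.

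Gpnmb (ENSMUSG00000029816), a glycoprotein of phagosomes and lysosomes that is induced in lipid-loaded macrophages, was at 1.38 FPKM (1.11 to 1.69) in WT and 1.70 FPKM (1.40 to 2.04) in KO macrophages. The intervals overlapped, and Gpnmb was the one member whose ratio of 1.23 had a counting interval that included 1 (0.929 to 1.64), so a difference was not detectable at this depth. The F4/80 gene Adgre1 was 626-fold and 544-fold more abundant. MiT family factors are known regulators of Gpnmb and lysosomal genes. Mitf was at 15.5 and 15.4 FPKM, Tfeb at 9.69 and 11.01 FPKM, Tfe3 at 52.6 and 71.2 FPKM and Tfec at 66.8 and 61.6 FPKM, none past the size rule.

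Spp1 (ENSMUSG00000029304), which encodes the secreted phosphoprotein osteopontin, was at 5.60 FPKM (4.74 to 6.55) in WT and 3.71 FPKM (3.01 to 4.49) in KO macrophages. The KO level was the lower and the intervals did not overlap, with a ratio of 0.663 (counting interval 0.508 to 0.856) and a log2 ratio of -0.49. About 152 and 100 fragments stood behind these values. Biliary cells and carcinoma cells can also make Spp1, and of 9 epithelial markers 3 were measured, with summed levels of 7.08 FPKM in WT against 6.24 FPKM in KO. The measured ones were Krt18 at 3.38 and 2.48 FPKM, Krt8 at 1.80 and 1.88 FPKM and Krt19 at 1.05 and 0.74 FPKM. Cldn4 was listed at 0 in both libraries and Epcam at 0 and 0.13 FPKM. The part of epithelial cells in the Spp1 values was not tested. Several receptor chains of osteopontin, though not Itga8, Itgb3 or Itgb6, were more abundant than the ligand. Cd44 was at 356 and 307 FPKM, 63.5-fold and 82.7-fold above Spp1, Itgb1 at 183 and 184 FPKM, Itgb5 at 111 and 167 FPKM, Itga9 at 107 and 141 FPKM and Itgav at 28.3 and 41.0 FPKM. Of 8 measured receptor genes, 1, Itga8, was at least 2-fold higher, at 0.16 and 1.38 FPKM. Itga8 is typical of stellate cells. Of 10 markers of stellate cells and fibroblasts, 6 were measured, 5 with ratios above 0 and 2 of them at least 2-fold higher. The part of these cells in the Itga8 value was not tested.

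Lgals3 and Lgals1 encode galectins, lectins that bind beta-galactosides and take part in phagocytosis, cell adhesion and immune regulation. Lgals3 (ENSMUSG00000050335), long used as a macrophage marker, was at 254 FPKM (248 to 261) in WT and 197 FPKM (191 to 202) in KO macrophages. Its ratio was 0.773 (counting interval 0.745 to 0.802), a log2 ratio of -0.37. Lgals1 (ENSMUSG00000068220), a galectin of monocyte-derived and stromal cells, was at 18.3 FPKM (16.2 to 20.6) and 14.9 FPKM, with a ratio of 0.815 (counting interval 0.677 to 0.979) and a log2 ratio of -0.28. The intervals of its levels overlapped. Both galectins were thus lower in the KO library and short of the size rule, and Lgals3 exceeded Lgals1 by 13.9-fold in WT and 13.2-fold in KO macrophages. Of the other galectin genes and the ligand Lgals3bp, 4 of 7 with a row were measured and none passed the rule. Lgals9 was at 302 and 255 FPKM, Lgals8 at 76.9 and 72.1 FPKM and Lgals3bp, a secreted glycoprotein that binds galectins, at 695 and 746 FPKM.

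Itgax (ENSMUSG00000030789), the alpha chain of the CD11c integrin that macrophages gain in lipid-laden tissue and that dendritic cells carry constitutively, was at 4.28 FPKM (3.81 to 4.78) in WT and 6.29 FPKM (5.73 to 6.89) in KO macrophages. The KO level was the higher, with a ratio of 1.47 (counting interval 1.27 to 1.70) and a log2 ratio of 0.47. Itgb2, the beta chain it needs to reach the surface, was at 253 and 256 FPKM, 59.1-fold and 40.6-fold above Itgax. Of the other alpha chains of this beta chain, Itgal at 400 and 322 FPKM and Itgam at 12.6 and 18.5 FPKM were more abundant than Itgax, and Itgad, at 0 and 0.07 FPKM, was under the floor. Of 8 dendritic cell markers, 4 were measured, 3 with log2 ratios above 0 and 1 below 0, and none passed the size rule. The 8 markers had summed levels of 30.3 FPKM in WT against 47.6 FPKM in KO, and none was at 0 in both libraries. Clec9a was at 15.4 and 25.8 FPKM, and Xcr1, the 1 below 0, was at 1.20 and 0.50 FPKM. The part of dendritic cells in the Itgax values was not tested.

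Cd84 (ENSMUSG00000038147), a receptor of the SLAM family that binds its like on other leukocytes, was at 114 FPKM (112 to 117) in WT and 140 FPKM (137 to 143) in KO macrophages. It was modestly higher in the KO library, with a ratio of 1.22 (counting interval 1.19 to 1.26) and a log2 ratio of 0.29. Of 11 other SLAM family and adaptor genes, 6 were measured and none passed the size rule, with a median log2 ratio of -0.09. Cd48 was close to Cd84 in level, at 119 and 132 FPKM, and Ly9 was at 91.4 and 72.9 FPKM. Slamf9 at 67.1 and 36.1 FPKM and Slamf8 at 38.4 and 26.4 FPKM, both of myeloid cells, had the lowest log2 ratios of the family, -0.88 and -0.52. Slamf6 at 8.94 and 12.2 FPKM and Slamf7 at 2.42 and 3.48 FPKM lay on the other side of 0. Sh2d1a, Sh2d1b1 and Sh2d1b2, adaptors that SLAM receptors use in lymphocytes, were under the floor in both libraries.

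Vim (ENSMUSG00000026728), the intermediate filament protein of mesenchymal cells and leukocytes, fell from 230 FPKM (226 to 235) in WT to 72.7 FPKM (70.1 to 75.4) in KO macrophages. This was the widest separation among the members, and the intervals lay far apart. The ratio was 0.316 (counting interval 0.303 to 0.329) and the log2 ratio -1.65, lower than all but 0.984% of measured genes. About 9111 and 2864 fragments stood behind the values. The expression of other intermediate filament genes was far below that of Vim. Of 14 listed, 8 were measured, and 2 lamins of the nuclear envelope fell at least 2-fold, Lmnb1 from 25.4 to 6.26 FPKM and Lmnb2 from 9.76 to 4.08 FPKM. The lamin Lmna was at 3.83 and 2.34 FPKM, Krt18 at 3.38 and 2.48 FPKM and Des, the filament of stellate and muscle cells, at 0.49 and 1.65 FPKM.

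Other markers moved with Vim or against it. The 12 cell division genes, all at least 2-fold lower in the KO library, had log2 ratios from -3.24 to -1.03, a range that includes that of Vim. Of 10 monocyte markers, 8 were measured, 3 with ratios above 0 and 5 below 0 and a median log2 ratio of -0.05. The 1 gene at least 2-fold lower was Plac8 at 908 and 427 FPKM. The ratios above 0 were those of Chil3 at 1.47 and 2.64 FPKM, Fn1 at 4.24 and 5.82 FPKM and S100a4 at 3.21 and 4.36 FPKM, while Ly6c2 was at 9.92 and 4.63 FPKM and Ccr2, the receptor that brings monocytes into tissue, at 8.08 and 7.63 FPKM. Endothelial and stellate cells also express Vim, and most of their measured markers were higher in the KO library. Of the 10 sinusoidal endothelial markers, all measured, 9 had ratios above 0 and 6 were at least 2-fold higher. Of the 10 stellate cell and fibroblast markers, 6 were measured, 5 with ratios above 0. The other, Tagln, was at 2.77 and 2.37 FPKM. Acta2, under the floor, was at 0.49 and 0.14 FPKM. The part of proliferating cells, monocytes or other cell types in the Vim difference was not tested.

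**Figure D4:**
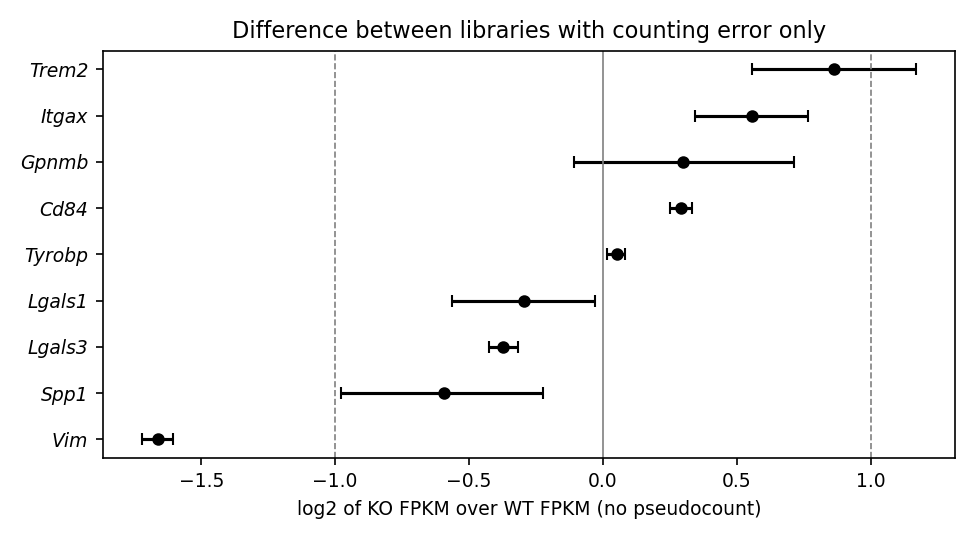
Log2 of KO FPKM over WT FPKM, with no pseudocount (x axis), for the 9 members (rows), with 95% intervals for counting error only and dashed lines at a 2-fold difference. The intervals lie wholly above 0 for 4 genes and wholly below 0 for 4, Gpnmb includes 0, and Vim alone lies beyond a dashed line.

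The rest of the lipid-associated program, which the members' rule left out, was mostly at similar levels in both libraries. Of 34 listed genes, 31 were measured, 1 was at least 2-fold higher, none was 2-fold lower, and the median log2 ratio was 0.09. The gene that passed was Fabp4, the adipocyte fatty acid binding protein, which rose from 4.13 to 9.68 FPKM. Its relative Fabp5, which has many processed copies that can share its reads, was at 4.08 and 6.42 FPKM. The cathepsins and the protease legumain were among the most abundant genes, with Ctss at 3205 and 2770 FPKM, Ctsb at 2078 and 2360 FPKM, Ctsd at 1918 and 1889 FPKM and Lgmn at 1606 and 1678 FPKM. Abca1, a cholesterol exporter, was at 56.2 and 87.8 FPKM, and Cxcl16, a chemokine that also takes up oxidised lipoprotein, at 52.1 and 82.7 FPKM. Mmp12, the macrophage elastase, at 9.94 and 5.16 FPKM, had the lowest log2 ratio, -0.83. Cd9, a tetraspanin used to sort lipid-associated macrophages, was at 8.81 and 8.74 FPKM. Cst7, Ank and Atp6v0d2, further genes of the program, were under the floor in both libraries.

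Over the 10 related lists together, 103 genes were measured, of which 3 (2.91%) rose by 2-fold or more and 4 (3.88%) fell by as much. These shares stand beside 2.21% and 2.95% of all measured genes. The higher genes were Apoe, Fabp4 and Itga8, and the lower ones were Trem3, Sirpb1a, Lmnb1 and Lmnb2.

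**Figure D5:**
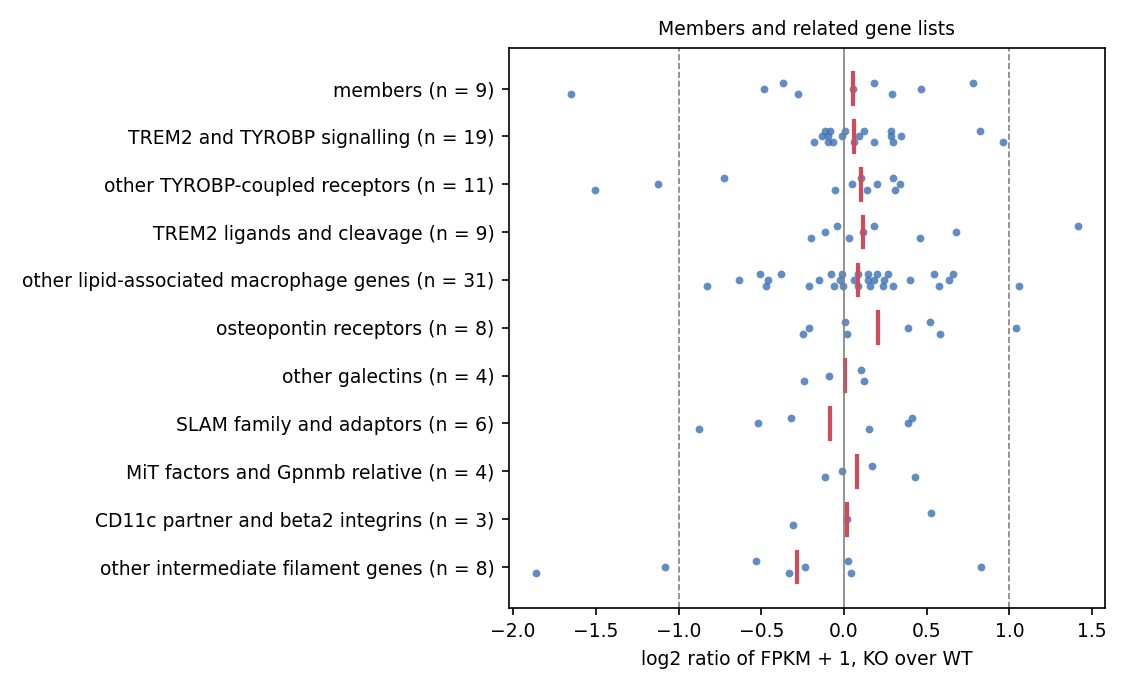
Log2 ratio of FPKM + 1, KO over WT (x axis), with points for the measured genes of the member list and 10 related lists (rows), with the median of each row (red line) and dashed lines at a 2-fold difference. The medians lie between -0.28 for the intermediate filament genes and 0.20 for the osteopontin receptors, and Vim, Trem3, Sirpb1a, Lmnb1 and Lmnb2 lie left of the lower dashed line.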

How the data were processed

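The authors deposited FPKM values with 2 decimals for 22322 genes in 1 WT and 1 FABP7 KO library, in a joint table and in single tables that held identical values. Poly(A) RNA was selected and sequenced on the Illumina platform. Bowtie2 2.2.8 and TopHat2 2.1.1 are listed in the processing notes of the submitters. The genome build, annotation, counting tool, strand setting and handling of shared reads were not given in the sources used here.

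Symbols came from GENCODE M21 by Ensembl ID (22267 of 22322 matched). A gene was kept where either library reached 1 FPKM (10770 genes). Log2 ratios used a pseudocount of 1 FPKM, and no test was made with 1 library per genotype. Depth was estimated as 18040000 fragments for WT and 17960000 for KO. At that depth, 89.1% of 129 low values of short genes in the WT and 93.0% of 128 in the KO library lay within 0.15 of a whole fragment, where chance gives 30%. Because that depth was chosen to maximise the agreement, these shares describe the fit. Fragment numbers assume GENCODE transcript lengths. The depth estimate and the size rule were run on simulated data that used the merged exon lengths of genes. Those runs did not cover the transcript lengths behind the fragment numbers and counting intervals.

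The members and lists were chosen with earlier results of these data known. By rule, all members could be named and, per related list, 4 genes or fewer by size of the ratio and 4 or fewer by mean level; from marker lists, 2 or fewer by mean level and markers that define the cells. Syk, Plcg2, Inpp5d, Trem1, Cd9, Fabp5, Cst7, Ank, Atp6v0d2, the SLAM adaptors, Itgb3 and Itgb6 were named outside this rule, after their values were seen. So were Itgad and the markers Marco, Cd163, Chil3, Fn1, S100a4, Adgre1, Cldn4, Epcam, Krt19, Tagln and Acta2. Alternatives were a pseudocount of 0.1, another scaling (KO values multiplied by 1.03 or 1.04), a 1.5-fold rule and another floor. The software was Matplotlib 3.10.9, SciPy 1.17.1, pandas 2.3.3, NumPy 2.4.6 and Python 3.11.15.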

Additional observations from a re-analysis of the deposited data

How the results depend on the processing

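No paired analysis was possible because each genotype had 1 library. Under all alternatives run, Vim was the one member at least 2-fold lower, and no member was 2-fold higher. Under the 1.5-fold rule 1 member, Trem2, counted as higher. No member's ratio changed sign in 27 values under other settings, and 3 moved beyond counting error: Tyrobp (0.0914 with median scaling, 0.10 with totals without hepatocyte, hemoglobin and mitochondrially encoded genes) and Cd84 (0.34 with those totals). The members' median of 0.05 was -0.11 with a floor of 5 FPKM, which drops Gpnmb. Over all measured genes, 562 were 2-fold higher with a pseudocount of 0.1, 143 with a floor of 5 FPKM, and 864 higher and 794 lower under the 1.5-fold rule. In the related lists, 163 of 180 values stayed within 1.5 times or counting error. With a pseudocount of 0.1, 2 signalling genes and 1 filament gene were 2-fold higher. With totals without hepatocyte, hemoglobin and mitochondrially encoded genes, 1 signalling gene was, and medians were 0.13 (other lipid-associated genes) and 0.0652 (beta2 integrins). The 1.5-fold rule gave 2 signalling, 2 ligand and cleavage, 3 other lipid-associated and 1 filament gene higher, and 2 other lipid-associated and 1 SLAM family gene lower. Without a floor the beta2 integrin median was 0.0565, and the filament median turned from -0.28 to 0.0106. With a floor of 5 FPKM 0 osteopontin receptors were higher, and medians were 0.0171 (osteopontin receptors), -0.0912 (galectins, a change of sign), -0.32 (SLAM family) and -1.47 (filaments), as fewer genes remained. Depth limits Gpnmb most, with about 92 and 113 fragments.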

Other observations

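The genes in this part were chosen after their values were seen. Trem2 lies in a cluster of related receptors, and Treml4, a myeloid receptor of that cluster, was far more abundant than Trem2, at 296 FPKM in WT against 255 FPKM in KO macrophages. Treml2 was at 14.8 and 8.0 FPKM and Treml1, a platelet receptor, at 0 and 0.26 FPKM. With Trem1 and Trem3, Trem2 was thus 1 of the 2 TREM genes named here with a higher value in the KO library, the other being Treml1, which was under the floor of 1 FPKM.

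Vim was set beside genes of the other cytoskeletal filaments. The tubulins Tubb5 (273 and 92.4 FPKM), Tuba1b (541 and 232 FPKM) and Tubb4b (74.9 and 31.0 FPKM), subunits of microtubules, fell at least 2-fold, Tuba1c was at 75.7 and 42.5 FPKM, Tubb2a at 29.9 and 28.1 FPKM, and Tuba1a was at 2.86 and 6.06 FPKM. Tubulin genes have close copies that can share reads. Actin and its partners differed less, with Actb at 2874 and 2516 FPKM, Actg1 at 850 and 751 FPKM, Tmsb4x at 4490 and 3872 FPKM and Cfl1 at 561 and 447 FPKM.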
